A study of Mus musculus with 4 samples.

Results

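The AP-1 transcription factor genes and the immediate early genes that are switched on with them were followed in mouse spleen. The 10 genes were chosen by symbol (Fos, Fosb, Fosl2, Jun, Junb, Jund, Dusp1, Ier2, Atf3 and Zfp36), and all 10 were found among the 23763 genes of the table, each under 1 Ensembl identifier. RNA had been taken from the spleens of untreated (baseline) C57BL/6J mice and sequenced after removal of ribosomal RNA, with 2 libraries labelled wild-type (WT) and 2 labelled KLHL3-KI, a knock-in at the Klhl3 gene. Klhl3 encodes an adaptor of a cullin ubiquitin ligase. None of the labels states the knock-in allele, or the mice's age or sex. Nothing in the labels says that the 2 libraries of a group come from separate animals, so the p-values measure the spread between these libraries, which may be technical.

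AP-1 is a dimer of basic leucine zipper proteins. Jun proteins pair with each other or with Fos proteins, and Fos proteins need a Jun partner to bind DNA. Immediate early genes are transcribed within minutes of a growth factor, cytokine or stress signal without new protein synthesis, through MAP kinases and the factors SRF, TCF and CREB, and their transcripts are short-lived. In spleen they mark recently stimulated lymphocytes and myeloid cells, and they also respond to the handling of tissue.

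Of the 10 genes, 6 rose in KLHL3-KI spleen, 0 fell and 4 did not pass the test. Fos, the phosphatase gene Dusp1 and Fosl2 had the largest differences, with mean levels 5.94, 3.58 and 2.98 times those of WT. Fosb, Junb and Jun rose as well, while Atf3, Ier2, Zfp36 and Jund did not pass. Over all 16970 genes tested, 15.2% rose and 7.56% fell (limma, Benjamini-Hochberg adjusted p under 0.05, also called adjusted p below). The median log2 fold change was 0.60 over the 10 genes and -0.01 over all genes tested.

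The start regions of 9 of the 10 genes were available in a RefSeq promoter table of build GRCm38.p6, all but that of Ier2. They are shown because CREB and SRF are known regulators of immediate early genes, and the letters of their elements can be searched there. The 250 bases before the start were searched on both strands for the CREB element TGACGTCA, its core TGACG (which the full element contains), the AP-1 site TGANTCA and the CArG box that SRF binds. Positions count back from the start, with -1 as the last base before it. Capitals mark TGACG, TGACGTCA or a CArG box, and each sequence runs 5′ to 3′ along the gene. The 3 that rose most are followed by Junb and by Zfp36. They lie at chr12:85473640-85473889 on the plus strand, chr17:26508473-26508722 on the minus strand, chr5:32136222-32136471 on the plus strand, chr8:84978749-84978998 on the minus strand and chr7:28379229-28379478 on the minus strand.
Fos: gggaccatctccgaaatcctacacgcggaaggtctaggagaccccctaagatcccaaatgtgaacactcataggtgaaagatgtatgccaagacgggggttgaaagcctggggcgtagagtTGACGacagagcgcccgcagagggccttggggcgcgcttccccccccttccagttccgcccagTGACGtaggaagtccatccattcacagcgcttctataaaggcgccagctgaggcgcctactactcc
Dusp1: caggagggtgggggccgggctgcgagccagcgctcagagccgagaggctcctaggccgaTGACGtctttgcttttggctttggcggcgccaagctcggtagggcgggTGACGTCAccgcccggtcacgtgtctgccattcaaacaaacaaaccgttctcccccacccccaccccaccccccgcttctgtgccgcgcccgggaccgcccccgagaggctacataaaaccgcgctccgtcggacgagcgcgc
Fosl2: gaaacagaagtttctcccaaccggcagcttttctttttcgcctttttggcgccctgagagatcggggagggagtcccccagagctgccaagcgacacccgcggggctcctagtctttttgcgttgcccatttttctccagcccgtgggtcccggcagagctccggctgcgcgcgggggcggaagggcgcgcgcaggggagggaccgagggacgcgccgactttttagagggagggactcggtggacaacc
Junb: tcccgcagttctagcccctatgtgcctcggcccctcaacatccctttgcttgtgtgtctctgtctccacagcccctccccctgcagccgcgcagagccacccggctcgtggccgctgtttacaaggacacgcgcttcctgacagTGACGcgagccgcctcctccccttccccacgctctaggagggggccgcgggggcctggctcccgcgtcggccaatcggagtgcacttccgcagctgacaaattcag
Zfp36: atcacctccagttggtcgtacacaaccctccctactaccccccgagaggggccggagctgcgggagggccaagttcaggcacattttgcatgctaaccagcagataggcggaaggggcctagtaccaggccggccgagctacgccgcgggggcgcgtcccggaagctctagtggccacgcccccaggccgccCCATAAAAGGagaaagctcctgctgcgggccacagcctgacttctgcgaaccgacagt
The Fos window holds TGACG at -129 to -125 and at -66 to -62, and a TATAAA at -33 to -28. In the Dusp1 window the full TGACGTCA stands at -143 to -136, with a further TGACG at -191 to -187. That of Junb has TGACG at -106 to -102, and that of Fosl2 has neither TGACG, TGACGTCA or TGANTCA nor a CArG box. The Zfp36 window, of a gene that did not pass, is the only member window with a CArG box, at -58 to -49. Bases further upstream than these 250 were not searched, so a window without an element does not show that its gene lacks that element. TGACG was found in 5 of the 9 windows (Fos, Fosb, Junb, Dusp1 and Atf3), against 17.8% of all 32851 windows of the table. TGACGTCA was found in 1.55% of all windows and a CArG box in 1.47%. TGANTCA was in none of the 9 windows and in 6.75% of all windows, and TATAAA, searched on the gene's strand only, was in 7.59%. Further letters were searched on both strands. The GC box GGGCGG was in 7 of the 9 windows and 32.7% of all windows. An NF-kB site, GGGRNNYYCC, was in 3 of the 9 (Fos, Fosb and Fosl2) and 7.25%. There R is A or G, Y is C or T and N is any base. The ETS core CCGGAA was in 1 of the 9 (Zfp36) and 12.0%. G and C made up 58.4% (Fos) to 68.8% (Fosb) of the member windows except that of Jund, at 47.6%. The median over all windows was 52.4%. The shares over all windows were not matched for G and C, so they do not test enrichment. A match is a description of the letters in the window, and factor binding was not measured in these data.

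All levels below are the authors' normalized counts, a scaled read count that is not corrected for gene length. Means are given ± SD with n = 2 libraries per group. Each log2 fold change is the KLHL3-KI mean less the WT mean on the log2(value + 1) scale, with its standard error (SE), and understates the change of genes with low values. Replicates 1 and 2 held 8535483 and 8975415 reads for WT, and 9586677 and 10933023 reads for KLHL3-KI, so that 1 read was worth 0.0974 to 0.112.

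Among the Fos proteins, the partners of Jun, all 3 genes rose. Fos (ENSMUSG00000021250), the prototype immediate early factor, stood at 3.69 in WT replicate 1, 2.49 in WT replicate 2, 21.1 in KLHL3-KI replicate 1 and 15.6 in KLHL3-KI replicate 2. Both KLHL3-KI libraries were far above both WT libraries, and these values rest on 33 and 24 WT reads against 192 and 160 KLHL3-KI reads. The mean was 3.09 ± 0.849 in WT and 18.4 ± 3.93 in KLHL3-KI. On the log2 scale Fos rose by 2.24 (SE 0.21), with a limma adjusted p of 6.65e-05, which is more than 99.03% of all genes tested.
Fosl2 (ENSMUSG00000029135), which encodes FRA-2, a slower and longer-lived Fos protein, had values of 27.9 and 30.6 in the WT and of 70.2 and 103.8 in the KLHL3-KI libraries. The groups did not overlap, and the KLHL3-KI libraries differed more from each other than the WT libraries did. The log2 fold change was 1.52 (SE 0.17, limma adjusted p = 1.74e-04).
Fosb (ENSMUSG00000003545), the lowest of the 10 genes per length, was at 1.57 and 1.87 in WT and at 3.63 and 4.87 in KLHL3-KI libraries, from 14 and 18 reads and from 33 and 50 reads. KLHL3-KI was higher in both libraries, by 0.94 on the log2 scale (SE 0.23, limma adjusted p = 0.0153). The call was lost without WT replicate 1 (0.0988), without WT replicate 2 (0.0743), without KLHL3-KI replicate 2 (0.0832) and with DESeq2 (0.113), and the limma and edgeR adjusted p went as low as 0.00601 over the alternatives. Fosl1, the remaining Fos gene, was looked for by symbol and was not found among the 23763 genes.

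The Jun genes differed less between the groups. Junb (ENSMUSG00000052837), whose product can restrain c-Jun and is induced with Fos, was at 59.4 and 63.3 in WT and at 92.7 and 89.0 in KLHL3-KI libraries. The replicates of a group lay close together and the groups were well apart, with means of 61.4 ± 2.76 and 90.9 ± 2.63. The log2 fold change was 0.56 (SE 0.10, limma adjusted p = 0.00286).
Jun (ENSMUSG00000052684), the c-Jun gene, was at 29.98 and 28.4 in WT and at 42.4 and 35.6 in KLHL3-KI libraries. Its groups did not overlap, and it passed close to the threshold, at 0.40 on the log2 scale (SE 0.12, limma adjusted p = 0.0436). This call was lost under 9 of the 17 alternatives, among them leaving out WT replicate 1 (0.134), WT replicate 2 (0.220) or KLHL3-KI replicate 1 (0.192), equal total reads (0.171) and quantile normalization (0.194). Its log2 fold change stayed between 0.24 and 0.52, and its adjusted p between 0.0183 and 0.220.
Jund (ENSMUSG00000071076), the Jun gene that is expressed without stimulation in most cells, was at 113 and 132 in WT and at 110.02 and 112.2 in KLHL3-KI libraries. Both KLHL3-KI values lay just under the lower WT value. The difference was -0.14 (SE 0.10, 95% interval from -0.37 to 0.10, limma adjusted p = 0.378).

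The other 4 genes encode a phosphatase, a nuclear protein, a repressor and an RNA-binding protein. Dusp1 (ENSMUSG00000024190), a phosphatase that switches off MAP kinases and so closes the loop on the signals that induce AP-1, was at 24.1 and 19.8 in WT and at 74.4 and 82.7 in KLHL3-KI libraries. The groups lay far apart against the spread within them. Its mean was 21.9 ± 2.99 in WT and 78.6 ± 5.82 in KLHL3-KI, and with a rise of 1.80 (SE 0.12) it had the lowest limma adjusted p of the 10, 8.94e-06.
Atf3 (ENSMUSG00000026628), a stress-induced bZIP factor that pairs with Jun proteins, was at 2.91 and 2.49 in WT and at 5.18 and 4.38 in KLHL3-KI libraries, from 24 to 26 and 45 to 47 reads. Both KLHL3-KI libraries were higher, yet the difference of 0.64 (SE 0.21, 95% interval from 0.18 to 1.11) did not pass, with a limma adjusted p of 0.0513. It passed under 5 of 16 alternatives, with an adjusted p of 0.0381 at the lowest and 0.327 at the highest. It was not tested at a minimum mean of 5, and neither was Fosb.
Ier2 (ENSMUSG00000053560), an immediate early nuclear protein, was at 25.1 and 29.2 in WT and at 36.8 and 32.2 in KLHL3-KI libraries. The groups did not overlap, but the log2 difference of 0.34 (SE 0.13, 95% interval from 0.05 to 0.63) did not pass, with a limma adjusted p of 0.0904. It passed under none of the 17 alternatives, where its adjusted p ran from 0.0703 to 0.366.
Zfp36 (ENSMUSG00000044786) encodes tristetraprolin, which binds AU-rich elements and speeds the decay of cytokine and immediate early transcripts. It was at 91.4 and 101.3 in WT and at 100.4 and 81.9 in KLHL3-KI libraries. It was the only member whose groups overlapped, at a log2 difference of -0.08 (SE 0.12, 95% interval from -0.35 to 0.18, limma adjusted p = 0.648).

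**Figure D1:**
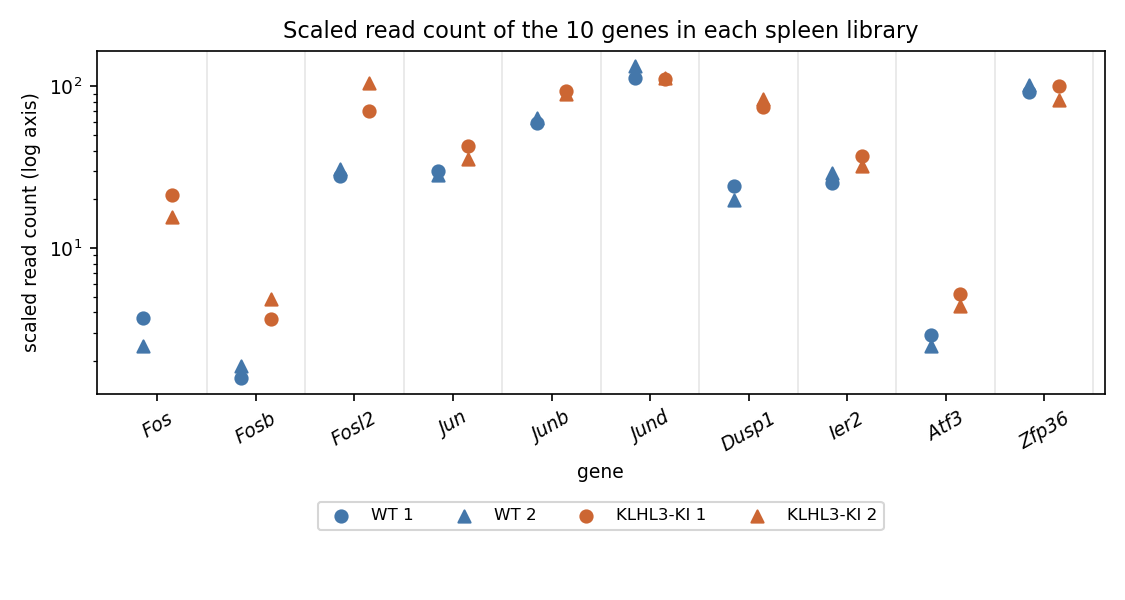
Scaled read count (log axis) of each of the 10 genes in the 4 spleen libraries, with WT in blue, KLHL3-KI in orange, circles for replicate 1 and triangles for replicate 2. The 2 orange points lie above the 2 blue points for 8 genes, below them for Jund, and among them for Zfp36.

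Both KLHL3-KI values were above both WT values for 8 of the 10 genes, where the same held for 32.8% of all genes tested. They were below for 1, Jund, against 31.9% of all genes tested. In either direction 9 of the 10 showed no overlap of the groups, against 64.7% of all genes tested. The log2 fold changes of Fos, Dusp1 and Fosl2 were over the 95th percentile of all genes tested, 1.18, and those of Jund and Zfp36 were under the median. With all 4 libraries kept, the number that rose ranged from 4 to 7 over the alternatives. It was 4 with DESeq2, where 2022 of all genes tested rose, and 7 with the robust variance model, among others, where 2739 did. Of the 10 genes, 0 fell under each of the 17 alternatives. Fos, Fosl2, Junb and Dusp1 rose under all 17.

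**Figure D2:**
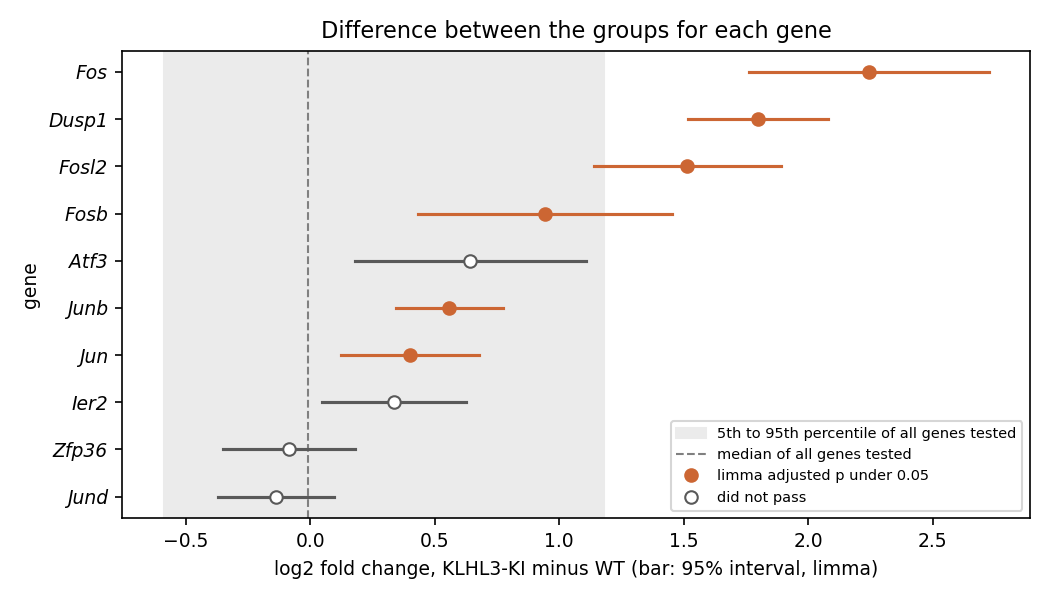
Log2 fold change (KLHL3-KI minus WT) of the 10 genes with the 95% interval of the limma model, where filled orange points passed an adjusted p of 0.05 and open points did not. The grey band spans the 5th to the 95th percentile of all genes tested, from -0.59 to 1.18, and the points run from Jund at -0.14 to Fos at 2.24.

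Levels can be set side by side between genes only per length, so the scaled reads were divided by an exon length from GENCODE M21. That length joins all annotated exons of a gene and can exceed that of the transcript present. The order of the genes and the ratios between them depend on it. In WT spleen Jund had the highest level, 73.5 scaled reads per kb. Zfp36 and Junb followed at 27.8 and 26.7 and were not apart, since their ranges over the libraries overlapped. Ier2 was at 17.8, Jun at 9.16, Dusp1 at 6.63 and Fosl2 at 3.02 per kb, each apart from its neighbours in both WT libraries. Fos at 1.31 and Atf3 at 1.25 overlapped, and Fosb was lowest at 0.275 per kb.
In KLHL3-KI spleen the order was different in the middle. Jund was again highest at 66.6 per kb and Junb came next at 39.5. Zfp36 at 26.3, Dusp1 at 23.7 and Ier2 at 22.7 formed a group whose ranges overlapped. Jun followed at 12.2, Fosl2 at 8.99 and Fos at 7.81 overlapped, and Atf3 at 2.22 and Fosb at 0.681 were lowest.
The summed level of the 3 Fos genes went from 4.61 ± 0.125 to 17.5 ± 0.926 per kb, and that of the 3 Jun genes from 109 ± 9.15 to 118 ± 1.72 per kb. The Fos genes therefore amounted to 4.57 and 3.90 per 100 of the Jun genes in the WT libraries and to 14.1 and 15.5 in the KLHL3-KI libraries. Within the Jun genes the share of Jund was 65.8% and 68.5% in WT against 55.2% and 57.4% in KLHL3-KI, and the share of Junb was 25.1% and 23.8% against 33.7% and 33.0%. Neither share overlapped between the groups. Within the Fos genes the share of Fos was 33.4% and 23.4% in WT against 53.5% and 36.5% in KLHL3-KI, with a wide spread inside each group. These ratios are given without a test, as 2 against 2 libraries cannot go below an exact permutation p of 0.333.

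**Figure D3:**
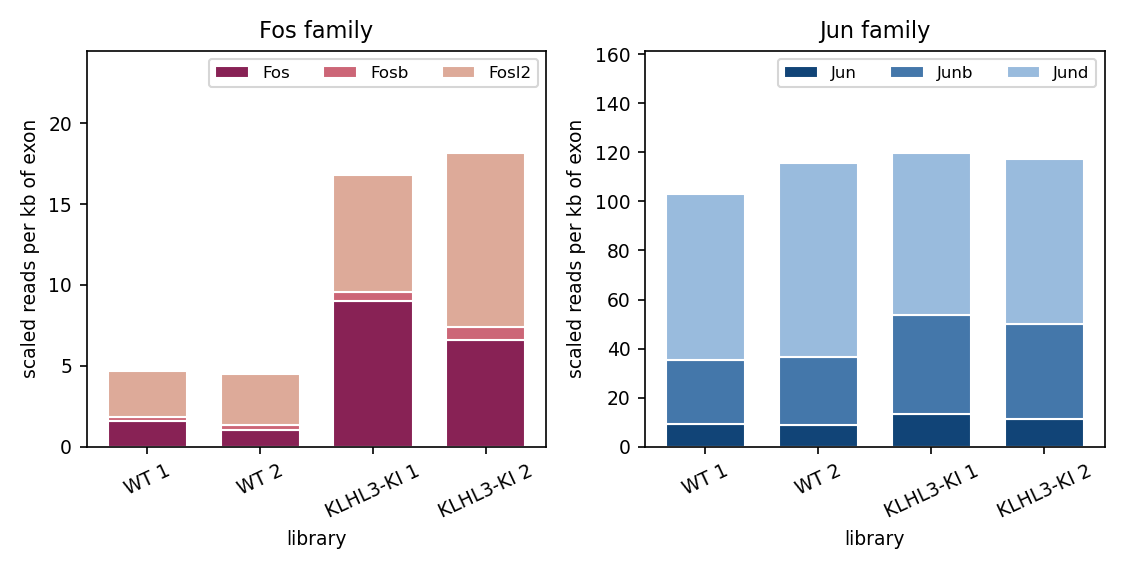
Scaled reads per kb of exon, stacked for the Fos genes (left) and the Jun genes (right) in each of the 4 libraries, on separate linear axes that start at 0. The Fos genes sum to 4.52 to 4.70 in WT and 16.8 to 18.1 in KLHL3-KI, while the Jun genes sum to 103 to 116 and 117 to 120.

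The remaining bZIP genes that meet the AP-1 proteins changed in both directions. Of 9 tested, 4 rose and 1 fell, with a median log2 fold change of 0.12, beside 15.2% and 7.56% of all genes tested. The small Maf genes, which lack an activation domain and pair with other bZIP factors, rose together: Mafg from 42.9 ± 2.45 to 83.2 ± 9.51 (log2 fold change 0.94, adjusted p = 3.34e-04), Mafk by 0.74 and Maff by 0.96. Jdp2, a Jun dimerization partner that represses AP-1 sites, rose by 0.64 (SE 0.18). Batf3, needed for a subset of dendritic cells, was the gene that fell (chosen after its values were seen), from 8.28 and 7.16 to 4.96 and 4.77. Its log2 fold change was -0.57 (SE 0.18), close to the threshold at a limma adjusted p of 0.0480. No gene of the list was called as falling without a minimum mean, with the replicate number as a block or with DESeq2. The calls of Maff and Jdp2 were lost without WT replicate 1, WT replicate 2 or KLHL3-KI replicate 2 (limma adjusted p = 0.0540, 0.0784 and 0.0508 for Maff, and 0.120, 0.180 and 0.206 for Jdp2). They were also lost with DESeq2 (0.0540 for Maff and 0.0742 for Jdp2), and Jdp2 was not called after quantile normalization (0.0532), at equal total reads (0.0701) or without a variance trend (0.0775). Leaving out each of these libraries gave fewer rises in the list, as over all genes tested. Batf3 was not called as falling with any of the libraries left out.

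Other immediate early genes changed in both directions. Of 30 tested, 8 rose and 3 fell, with a median of 0.10, beside 15.2% and 7.56% of all genes tested. Ccn1, a secreted matrix protein that responds to serum and stretch, rose from 4.83 ± 0.505 to 40.5 ± 13.4 (log2 fold change 2.80, SE 0.21, limma adjusted p = 1.51e-05). Ppp1r15a, which encodes GADD34, rose from 40.8 ± 4.30 to 180.3 ± 21.2 (2.11, SE 0.12, limma adjusted p = 2.67e-06). Rgs1, a regulator of G protein signalling in lymphocytes, rose by 1.21 (SE 0.14). Klf2, a factor of quiescent T cells and endothelium, fell by 0.70 on the log2 scale (SE 0.09). These 4 kept their calls under all 17 alternatives. The EGR and NR4A factors are classic companions of Fos. Egr3 fell by 0.65 on the log2 scale (SE 0.14, limma adjusted p = 0.0103). Egr2 at -0.14, Nr4a1 at 0.06, Nr4a2 at 0.49 and Nr4a3 at 0.11 did not pass. These genes were also named after their values were seen. Egr1 was at 17.1 and 21.3 in WT but at 61.6 and 22.7 in KLHL3-KI libraries, so that only KLHL3-KI replicate 1 stood apart, and it did not pass (0.94, SE 0.35, limma adjusted p = 0.0866, chosen after its values were seen). Fewer genes of the list were called without WT replicate 1 or without WT replicate 2, as over all genes tested. Its median was then 0.08 and 0.13. The list had 6 rises and 7 falls with equal total reads, where 1912 of all genes tested rose and 3126 fell.

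The pathways that induce AP-1 were looked at next. Of 20 MAP kinase cascade genes, 3 rose and 1 fell, with a median of 0.10, beside 15.2% and 7.56% of all genes tested. Hras, a small GTPase upstream of the kinases, rose from 12.3 ± 0.0318 to 25.9 ± 1.92 (log2 fold change 1.01, SE 0.13, limma adjusted p = 5.49e-04), and Map2k3, a kinase that activates p38, rose by 1.07 (SE 0.14). Mapk13, a p38 kinase at 0.603 in WT and 2.06 in KLHL3-KI, rose by 0.96, and the p38 kinase Mapk11 fell by 0.64. Mapk13 reached the minimum mean of 1 only through KLHL3-KI. The Mapk13 call was lost without WT replicate 2 (0.207) or KLHL3-KI replicate 2 (0.0769), and that of Mapk11 without WT replicate 1 (0.0982), WT replicate 2 (0.212), KLHL3-KI replicate 2 (0.131) or a variance trend (0.0900). DESeq2 gave no adjusted p for Mapk13. More genes of the list rose without KLHL3-KI replicate 1, as over all genes tested. With equal total reads the list had 3 rises and 4 falls, where 1912 of all genes tested rose and 3126 fell.
Of 13 SRF, TCF and CREB genes, 2 rose and 2 fell, with a median of -0.16, beside 15.2% and 7.56% of all genes tested. The CREB relatives Atf1 and Crem rose by 0.80 (SE 0.11) and 0.98 (SE 0.18). The TCF genes Elk3 and Elk4, partners of SRF, fell by 0.45 (SE 0.12) and 0.32 (SE 0.09). Srf itself was at 41.1 and 37.0 in WT and at 37.9 and 37.7 in KLHL3-KI libraries and did not pass (named after its values were seen). Neither TCF gene was called without WT replicate 1, WT replicate 2 or KLHL3-KI replicate 2 (limma adjusted p = 0.0955, 0.184 and 0.136 for Elk3, and 0.124, 0.163 and 0.174 for Elk4), nor was Crem without WT replicate 2 (0.0693). Without a variance trend the adjusted p was 0.0993 for Elk3 and 0.130 for Elk4. The list had 2 rises and 6 falls with equal total reads, where 1912 of all genes tested rose and 3126 fell.

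Among the phosphatases related to Dusp1, 1 of 8 tested rose and 2 fell, with a median of -0.06, beside 15.2% and 7.56% of all genes tested. Dusp8, a phosphatase of stress-activated kinases, rose from 3.89 ± 0.358 to 17.7 ± 2.63 (log2 fold change 1.93, SE 0.18, limma adjusted p = 4.90e-05). Dusp2 and Dusp10, known from lymphocytes and T cells, fell by 0.47 (SE 0.13) and 0.54 (SE 0.15). Dusp6, which acts on ERK, was at 62.9 and 80.2 and did not pass (0.34, limma adjusted p = 0.0797). It passed without KLHL3-KI replicate 2 (0.0146) and with the replicate number as a block (0.0362). Dusp2 and Dusp10 lost their calls without WT replicate 1, WT replicate 2 or KLHL3-KI replicate 2, at limma adjusted p values of 0.0937, 0.192 and 0.139 for Dusp2 and 0.178, 0.104 and 0.142 for Dusp10. Their calls were also lost without a variance trend (0.0899 and 0.0688) and with DESeq2 (0.0530 and 0.107).
Of 9 genes of the ZFP36 family and its decay partners, 2 rose and 0 fell, with a median of 0.09, beside 15.2% and 7.56% of all genes tested. Khsrp and Elavl1, which also bind AU-rich elements and respectively speed and slow decay, rose by 0.62 (SE 0.12) and 0.32 (SE 0.09). Khsrp was not called in the fit with no variance trend (0.0609) or with WT replicate 1 left out (0.0813). Elavl1 lost its call under 8 of 17 alternatives: without WT replicate 1, WT replicate 2 or KLHL3-KI replicate 2 (0.131, 0.168 and 0.167), after quantile normalization (0.116), at equal total reads (0.215), where its log2 fold change was 0.15, with haemoglobin, immunoglobulin and mitochondrial genes removed (0.147), without a variance trend (0.127) and with DESeq2 (0.0624). Zfp36l2 was at 218 and 221 in WT and at 234 and 339 in KLHL3-KI libraries. It did not pass (limma adjusted p = 0.121) but did without KLHL3-KI replicate 1 (5.04e-04) and with the replicate number as a block (0.0368). Hnrnpd did not pass (0.124) but did without KLHL3-KI replicate 1 (0.0284). More genes of that list rose without KLHL3-KI replicate 1, and fewer without WT replicate 1, WT replicate 2 or KLHL3-KI replicate 2. The same held over all genes tested.
Cytokine transcripts that tristetraprolin is known to destabilize went both ways. Of 11 genes measured, 6 reached the minimum mean of 1. Of these, 3 rose and 1 fell, with a median of 0.73, beside 15.2% and 7.56% of all genes tested. Without the minimum, the median over all 11 was 0.27. Cxcl1 and Ccl2 reached the minimum only through KLHL3-KI, where they were at 2.10 and 1.87. Il1b went from 18.6 ± 3.12 to 64.3 ± 3.97 (log2 fold change 1.74, SE 0.13, limma adjusted p = 1.72e-05), and Cxcl1 and Ccl2, at 0.264 and 0.495 in WT, rose by 1.303 (SE 0.27) and 0.97 (SE 0.28). Tnf fell from 13.9 ± 1.17 to 7.72 ± 1.69, by 0.79 (SE 0.18). The Tnf call was lost without WT replicate 1 (0.0632), WT replicate 2 (0.126) or KLHL3-KI replicate 2 (0.0510), and that of Ccl2 without WT replicate 1 (0.0509), WT replicate 2 (0.229) or KLHL3-KI replicate 1 (0.0775). Cxcl1 lost its call without WT replicate 1, where fewer genes of the list rose, as over all genes tested. DESeq2 gave no adjusted p for Cxcl1 or Ccl2, and 1 gene of the list rose there, beside 2022 of all genes tested.

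**Figure D4:**
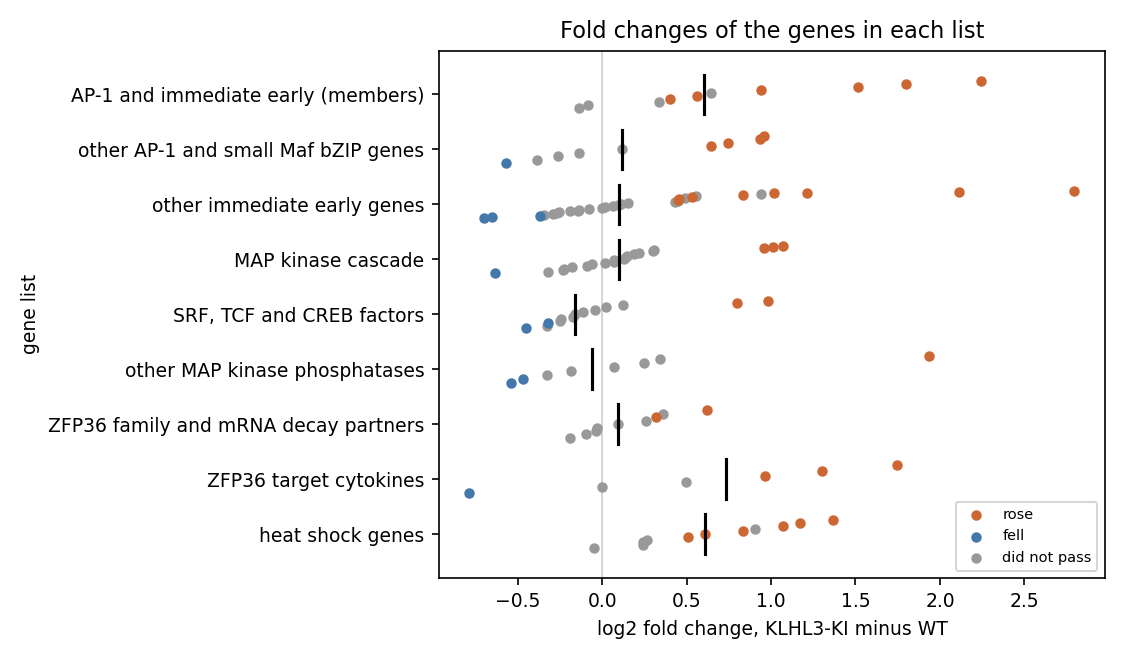
Log2 fold change (KLHL3-KI minus WT) of every tested gene in each list, with genes that rose in orange, genes that fell in blue, genes that did not pass in grey and the list's median as a black bar. The medians of the 10 AP-1 and immediate early genes (0.60), the cytokines (0.73) and the heat shock genes (0.61) lie right of the others, which run from -0.16 to 0.12. The cytokine median is over the 6 genes that reached a mean of 1, and was 0.27 over all 11 without that minimum.

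The levels of cell type markers also differed between the groups. In bulk spleen, fewer cells of a type and less RNA per cell cannot be told apart. All 10 neutrophil markers and all 10 erythroid markers rose, and their summed levels went from between 73.8 and 159.5 to between 1463 and 1999 for neutrophils, and from between 1289 and 1615 to between 6093 and 6890 for erythroid cells. All 8 megakaryocyte and platelet markers and 5 of 10 monocyte and macrophage markers rose, with 1 of the latter falling. All 10 T cell and 9 of 10 B cell markers fell, from between 502 and 546 to between 282 and 299.9 for T cells and from between 3833 and 3956 to between 2191 and 2867 for B cells. Of 9 stromal and endothelial and 6 plasma cell markers, 0 rose and 0 fell. Beside all these marker counts, the shares over all genes tested were 15.2% that rose and 7.56% that fell. None of the 73 markers was at 0 in any library. The part of these shifts in the levels of the AP-1 and immediate early genes was not tested.

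Heat shock genes, which respond to handling and stress alongside immediate early genes, were also measured. Of 11 tested, 6 rose and 0 fell, with a median of 0.61, beside 15.2% and 7.56% of all genes tested. Hspb1 rose by 1.36 (SE 0.13), Hsp90aa1 by 1.17 (SE 0.15), Hspd1 by 0.84 (SE 0.13) and Hspe1 by 0.61 (SE 0.15). Their limma adjusted p was 7.20e-05, 5.48e-04, 0.00153 and 0.0160 in this order. Hspe1 lost its call without WT replicate 2, with quantile-normalized values (0.0537) and in the fit with no variance trend (0.0851). With quantile-normalized values or no variance trend 3 heat shock genes rose, beside 2041 and 1803 of all genes tested. Fewer heat shock genes rose without WT replicate 2, as over all genes tested. More rose without KLHL3-KI replicate 2 and fewer, with a fall, without KLHL3-KI replicate 1. There the number of all genes that rose moved the other way.
These genes also differed between the libraries of a group: 9 of 11 were lower in replicate 2 than in replicate 1 in both WT and KLHL3-KI, against 22.8% of all genes tested. Of these, Hsp90aa1 differed hardly at all in KLHL3-KI, at 1163 and 1162. Hspa1a, chosen after its values were seen, was at 20.6 and 7.99 in the WT libraries and at 38.8 and 16.2 in the KLHL3-KI libraries. Of the 10 AP-1 and immediate early genes, 3 were lower in replicate 2 of both groups (Fos, Jun and Atf3), 3 were higher in both (Fosb, Fosl2 and Jund) and 4 went in opposite directions. Fos was lower in replicate 2 by 0.43 in WT and 0.42 in KLHL3-KI on the log2 scale, less than its difference between the groups. The median absolute log2 difference within a group was 0.16 in WT and 0.22 in KLHL3-KI over the 10 genes, and 0.14 and 0.16 over all genes tested. The part of the heat shock differences in the other results was not tested.

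**Figure D5:**
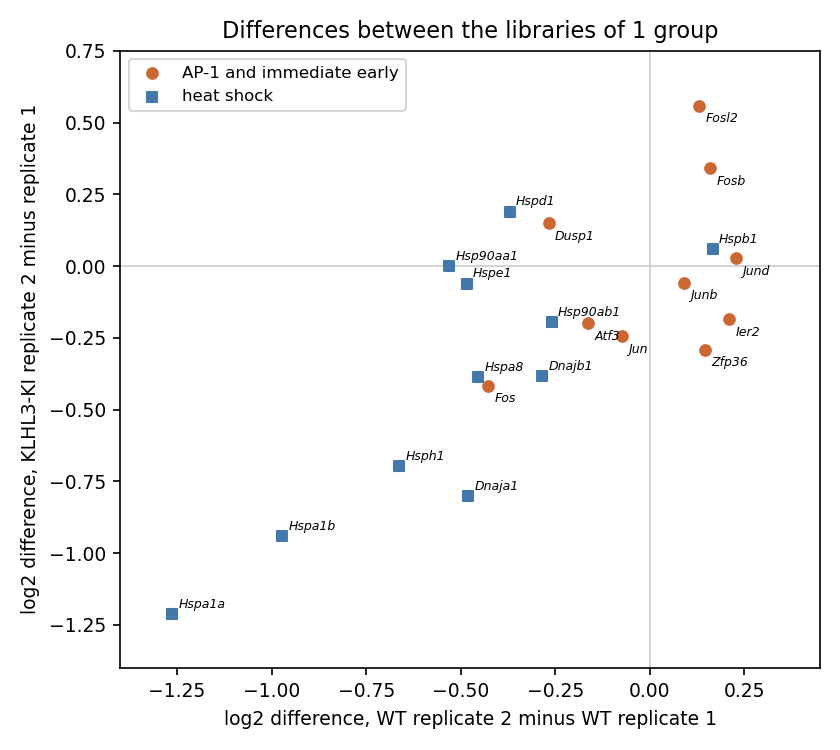
Log2 difference between replicate 2 and replicate 1 in WT (horizontal) and in KLHL3-KI (vertical) for the 10 AP-1 and immediate early genes (orange circles) and the 11 heat shock genes (blue squares). Most heat shock genes lie at the lower left, down to Hspa1a at -1.26 and -1.21, while the orange points scatter around 0, with Fos at -0.43 and -0.42.

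The genes whose 4 values most resembled the average profile of the 10 were sought among 10553 other genes with a mean of at least 10. Likeness was the root mean square distance between log2 values, each less its mean over the 4 libraries. The nearest were Arl6ip6, Ank, Selenbp1, Lpcat1 and BC017158, at distances of 0.0178 to 0.0290, over 4 libraries from 2 groups. Lpcat1, for example, was at 79.0 and 80.8 in WT and at 142 and 144 in KLHL3-KI libraries.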

How the data were processed

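RNA from 4 spleen samples was analysed as 1 library each, with groups and replicate numbers from the sample titles. Per the submitters' processing notes, Trimmomatic 0.38, Bowtie2, RSEM 1.3.0 and edgeR were used with build GRCm39; what each did, which annotation was used and what was filtered is not stated. The deposited values are a normalized signal per gene. All values (100%) were whole multiples of the library's smallest value within 0.001 of a read, so whole reads were recovered. Names came from GENCODE M21 (GRCm38), which named 23605 of 23763 identifiers (99.3%), so no coordinates of the files are given.

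Genes averaging 1 or more over the libraries, 16970 in all, were tested on log2(value + 1) with limma 3.58.1 in R 4.3.3 (variance trend, two-sided, adjusted over all genes). All 10 members passed this minimum, Fosb and Atf3 at low values. Alternatives were other pseudocounts (0.1 and 5), other minimums (none and 5), 4 other scalings, 2 other variance models and a replicate block. Each library was also left out, and edgeR 4.0.16 and DESeq2 1.42.0 were run on the recovered reads. With edgeR 6 members and 2533 of all genes tested rose, and with DESeq2 4 members and 2022 of all genes tested. The test was checked on simulated counts that gave every gene the same spread setting. That check does not cover the uneven spread between genes in these data. Members and lists were chosen with earlier results of these data known. Named genes are the members, up to 4 genes of lowest p per list and the 5 genes nearest to the members' profile. Batf3, Egr1, Egr2, Egr3, Nr4a1, Nr4a2, Nr4a3, Srf and Hspa1a were named after their values were seen. The replicate numbers were taken only as names. The column names of replicates 1 and 2 are WT_Sp_2 and WT_Sp_3 for WT, and KI_Sp_1 and KI_Sp_3 for KLHL3-KI. Nothing in the labels says what an equal number stands for.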

Additional observations from a re-analysis of the deposited data

How the results depend on the processing

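Depth limits Fos, Fosb and Atf3 in WT, at 14 to 33 reads a library, and n = 2 per group limits all results. Under the 17 alternatives the 10 genes kept the direction of their difference, except that Zfp36 ranged from -0.23 to 0.061 when 1 library was left out, positive without KLHL3-KI replicate 2. Scaling moved the median of all genes tested from -0.01 to -0.10 (quantile normalization), -0.16 (equal total reads) and -0.14 (haemoglobin, immunoglobulin and mitochondrial genes removed). Relative to that median, Fos was between 2.25 and 2.31, Jun between 0.34 and 0.41 and Jund between -0.17 and -0.13 over the 4 other scalings. The number of all genes that fell, 1283, became 2369, 3126 and 2971 there, against 2583 that rose with the values as deposited and 2041, 1912 and 2087 there. It was 659 without a variance trend, where 2462 were called in all against 3866, and 781 with DESeq2. Leaving out 1 library, the genes that rose ranged from 1386 to 2903, those that fell from 267 to 1627 and those called from 1653 to 4530, and the number of the 10 genes that rose from 4 to 5. The cause was not tested. With the replicate number as a block 6 of the 10 genes rose and 4130 genes were called, and no member's call changed. The deviations of same-numbered libraries from their group means correlated at -0.0325 across all genes tested, although 9 of 11 heat shock genes were lower in replicate 2 of both groups, as were 22.8% of all genes tested. Median log2 fold changes of the lists kept their sign under all alternatives for the SRF, TCF and CREB genes, the phosphatases, the cytokines and the heat shock genes, and not for the other 4 lists, whose medians ran between -0.08 and 0.14.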
